A study of Arabidopsis thaliana with 28 samples.

Results

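Nitrate reduction and ammonium assimilation were described through 10 genes, listed by locus identifier with no threshold on their values, out of 33557 genes in the deposited table, and all 10 were found there. They are the nitrate reductases NIA1 (AT1G77760) and NIA2 (AT1G37130), the nitrite reductase NIR1 (AT2G15620), the plastid glutamine synthetase GLN2 (AT5G35630), the cytosolic glutamine synthetases GLN1;1 (AT5G37600), GLN1;2 (AT1G66200) and GLN1;3 (AT3G17820), the glutamate dehydrogenases GDH1 (AT5G18170) and GDH2 (AT5G07440), and the asparagine synthetase ASN2 (AT5G65010). All 10 had a mean of at least 1 FPKM, the filter used for testing, and since the lowest single value of any of them was 3.35 FPKM, none passed it through one group alone.

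The plants were Arabidopsis thaliana seedlings of the Columbia accession (genotype Col-0), with no mutant or transgene in any group, grown on Linsmaier and Skoog agar. They were kept in darkness for 3 days at 21 °C, and then either harvested in the dark or given simulated white light of 100 µmol m−2 s−1 (blue, red and low far-red LEDs) for 15 min, 30 min, 1 h, 3 h, 6 h or 12 h. Roots were cut off, and the cotyledons with the shoot apical meristem (called cotyledons from here on) were separated from the hypocotyls, the embryonic stems, after collection in cold 80% acetone. Each of the 2 tissues at each of the 7 stages had 2 biological replicates, named A and B, which gave 28 poly(A) RNA libraries. The sources used here do not give the number of seedlings pooled for a library.

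Plants reduce nitrate to nitrite in the cytosol with nitrate reductase, a molybdenum enzyme that draws electrons from NAD(P)H. Nitrite enters the plastid, where nitrite reductase, which carries sirohaem and an iron-sulphur cluster, reduces it to ammonium with electrons from ferredoxin. Glutamine synthetase and glutamate synthase then fix ammonium into amino acids, while glutamate dehydrogenase, a mitochondrial enzyme that mainly runs towards breakdown of glutamate, and asparagine synthetase link these amino acids to carbon status and to nitrogen transport. In green tissue the pathway is known to be under the control of light, nitrate and sugars, and asparagine metabolism has long served as a marker of the switch between light and darkness.

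The DNA before the annotated starts of 4 genes is shown because NIA1 and NIA2 encode the same enzyme but followed different courses, NIR1 had the sharpest single peak, and GDH1 alone held 2 of the searched motifs. Each stretch is the 250 bases before the gene's start in the RefSeq annotation of TAIR10.1, in the direction of transcription, and excludes every annotated exon of the gene. The stretches are chr1:29239485-29239734 (minus strand) for NIA1, chr1:14158202-14158451 (plus) for NIA2, chr2:6810145-6810394 (plus) for NIR1 and chr5:6005785-6006034 (plus) for GDH1, and no other annotated gene lay in them. Capitals mark a match to one of 4 motifs searched on both strands.
NIA1: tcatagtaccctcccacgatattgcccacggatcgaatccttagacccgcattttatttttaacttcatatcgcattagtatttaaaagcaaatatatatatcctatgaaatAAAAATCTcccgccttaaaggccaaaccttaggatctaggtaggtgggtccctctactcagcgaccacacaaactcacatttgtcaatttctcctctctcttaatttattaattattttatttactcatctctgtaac
NIA2: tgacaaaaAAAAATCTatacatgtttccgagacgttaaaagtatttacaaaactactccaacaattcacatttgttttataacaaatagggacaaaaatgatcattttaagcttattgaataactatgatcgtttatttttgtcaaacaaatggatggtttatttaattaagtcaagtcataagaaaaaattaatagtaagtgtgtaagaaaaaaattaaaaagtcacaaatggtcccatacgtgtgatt
NIR1: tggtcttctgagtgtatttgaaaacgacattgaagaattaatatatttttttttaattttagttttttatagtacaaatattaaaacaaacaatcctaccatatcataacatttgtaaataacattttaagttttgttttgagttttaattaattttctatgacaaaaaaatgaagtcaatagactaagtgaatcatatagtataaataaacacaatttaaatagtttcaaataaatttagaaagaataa
GDH1: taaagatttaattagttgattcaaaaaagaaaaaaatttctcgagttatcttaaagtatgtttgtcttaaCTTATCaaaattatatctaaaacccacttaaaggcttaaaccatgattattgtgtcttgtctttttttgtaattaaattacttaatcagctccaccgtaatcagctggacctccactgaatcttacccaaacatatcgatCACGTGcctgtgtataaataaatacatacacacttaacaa

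The capitals in NIA1 and NIA2 are the CCA1 binding site AAAAATCT, and those in GDH1 are the I-box GATAAG (here on the other strand, so it reads CTTATC) followed by the G-box CACGTG. The CCA1 binding site occurred in 3 of the 10 genes (NIA1, NIA2 and GLN1;1) and in 6.68% of 27431 upstream windows of the same length. The G-box occurred in 1 of 10 and in 6.49% of all windows, the I-box in 1 of 10 and in 12.3%, and the evening element AAAATATCT in 0 of 10 and in 2.36%. NIR1 held none of these letters in its window. A match describes the letters only.

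Values are FPKM, in which fragment counts are scaled by transcript length and sequencing depth, so that levels of different genes can be set side by side. Read counts were not analysed here, and the steps between low FPKM values put the depth of the libraries between 0.614 and 1.72 times their average. By the same estimate the fewest fragments behind any value of the 10 genes were about 75.3 (ASN2 in hypocotyls in darkness, replicate B). The 5 stomatal lineage markers summed to 31.5 to 120.2 FPKM in cotyledons and 0.993 to 4.21 in hypocotyls. The 5 Casparian strip and endodermis markers summed to 2.00 to 8.10 FPKM in cotyledons and 459 to 2703 in hypocotyls. Of 7 root markers 4 were at 0 in every cotyledon library and 2 in every hypocotyl library, and their sum never passed 1.47 FPKM. Of the 5 meristem markers, STM stood at 10.9 and 9.11 FPKM (replicates A and B) in dark cotyledons and 0.576 and 0.913 in dark hypocotyls, while KNAT1 was higher in hypocotyls.

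Changes are differences between group means of log2(FPKM + 1), with the standard error (SE) of a limma model fitted to 18678 genes, which understates the change of genes near 1 FPKM. A gene was called at a Benjamini-Hochberg adjusted p under 0.05 over all genes tested and a difference of at least 1. All 6 times in a tissue were compared with the same 2 dark libraries, so the comparisons are not independent. No dark libraries matched in age to the later times are among those analysed, so the effects of light, age and time of day cannot be told apart. In these bulk samples, fewer cells of a type and less RNA per cell cannot be told apart either.

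None of the 10 genes was called within the first 30 min of light by limma, nor by the same thresholds in the authors' deposited table. In cotyledons the count of called genes was 0 at 15 min, where 0.846% of all genes were called, and 0 at 30 min against 3.37%, with 0 and 4 of the 10 at an unadjusted p under 0.05. It was then 4 at 1 h against 11.3%, 6 at 3 h against 24.0%, 7 at 6 h against 28% and 7 at 12 h against 23.3%. Hypocotyls had 0 called genes at 15 min against 0.996% of all genes, 0 at 30 min against 3.60% (2 and 5 of the 10 at an unadjusted p under 0.05) and 1 at 1 h against 8.26%. From 3 h on the hypocotyl counts were 7 against 21.2%, then 7 at 6 h against 26.1% and 6 at 12 h against 30.8%. Thus at least 6 of 10 were called at 3 h and later in either tissue, where between 21.2% and 30.8% of all genes were. Since the 10 genes were chosen with earlier results of these data known, this comparison is no test of an excess.

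The directions were mixed throughout, with both dehydrogenases lower and the reductases, GLN2 and ASN2 higher wherever they were called, apart from NIA1 in cotyledons. In cotyledons 4 of the called genes were higher and 2 lower at 3 h, with 5 higher and 2 lower at 6 h, then 6 higher and 1 lower at 12 h. Hypocotyls had 5 higher and 2 lower at both 3 h and 6 h, then 4 higher and 2 lower at 12 h. The median difference of the 10 genes was 0.71 at 3 h, 1.26 at 6 h and 1.51 at 12 h in cotyledons. In hypocotyls it was 1.1, 0.57 and 0.49 at these times. The median over all genes was 0.03, 0.03 and 0.04 in cotyledons and 0.04, 0.01 and 0.02 in hypocotyls.

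The change with light itself differed between the tissues for most of the 10 genes. The test of hypocotyl change minus cotyledon change called 0 of 10 at 15 min (0.503% of all genes) and 0 at 30 min (2.41%), with 0 and 2 at an unadjusted p under 0.05. It called 2 at 1 h (9.90%), 7 at 3 h (29.0%), 6 at 6 h (36.9%) and 7 at 12 h (33.8%). GLN2 was not called in this test, with a difference of 0.60 ± 0.19 (SE) at 12 h, but under quantile normalization it was called at 3 h, 6 h and 12 h (1.51, 1.23 and 1.62).

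Markers of the stomatal lineage moved over the same times. In cotyledons 4 of 5 were called higher at 3 h, at 6 h and at 12 h, with medians of 1.61, 1.61 and 1.63. In hypocotyls the medians were 0.275, 0.38 and 0.515, but only 1 of the 5 averaged at least 1 FPKM there. Changes of such low values are understated on the log2(FPKM + 1) scale. The difference between the tissues was called for 4, 4 and 3 markers, but it cannot be read as a weaker response in hypocotyls. The markers rose beside the cotyledon changes of NIA2, NIR1, GLN2, GLN1;1, GLN1;2 and ASN2, and their part in those changes was not tested.

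**Figure D1:**
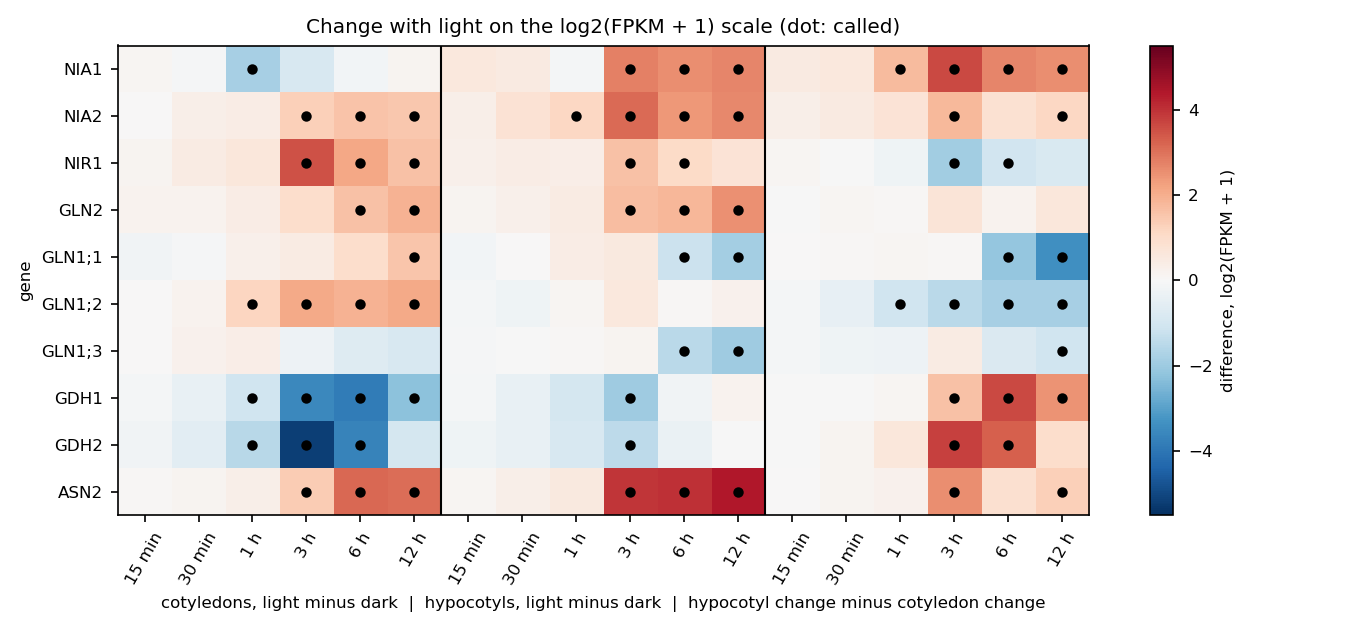
Colour gives the change of each of the 10 genes (rows) on the log2(FPKM + 1) scale, for light minus darkness in cotyledons (left), in hypocotyls (middle) and for the hypocotyl change minus the cotyledon change (right), at 15 min to 12 h; a dot marks a called change. The dots start at 1 h, GDH1 and GDH2 are blue in cotyledons at 3 h and 6 h, and the row of NIA1 is blue at 1 h on the left and red from 3 h in the middle.

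The nitrate reductases NIA1 and NIA2, which catalyse the first step of the pathway, behaved differently from each other and between the tissues. NIA1 in cotyledons measured 242/249.7 FPKM (replicates A/B, as in the lists of values that follow) in darkness, 245/282 at 15 min, 241/224 at 30 min, 84.1/55 at 1 h, 153/119 at 3 h, 239/202 at 6 h and 264/283 at 12 h. In hypocotyls NIA1 measured 8.36/7.71 FPKM in darkness, 10.3/14.9 at 15 min, 10.9/12.8 at 30 min, 7.32/7.39 at 1 h, 67.2/54.2 at 3 h, 59.1/44.7 at 6 h and 62/53 at 12 h. Cotyledon NIA1 was thus high in darkness, lowest at 1 h in both replicates and back near its dark values by 12 h, whereas hypocotyl NIA1 was low until 1 h and well above its dark values from 3 h, with no overlap. The fall in cotyledons at 1 h was -1.84 ± 0.19 (SE, adjusted p = 1.23e-07), and at 3 h the difference of -0.86 ± 0.19 was not called, although it was with quantile normalization (-1.17). The chloroplast-encoded share of all FPKM was 20.5% in replicate A and 4.23% in replicate B of cotyledons at 1 h. NIA1 was low in both of these libraries. Hypocotyl NIA1 rose by 2.76 ± 0.19 (SE) at 3 h (adjusted p = 1.09e-10) and remained called at 6 h and 12 h, with means 7.55 times the dark mean at 3 h and 7.15 times at 12 h.

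NIA2, known as the isoform that supplies most nitrate reductase activity in Arabidopsis leaves, rose in both tissues and did not dip at 1 h. Its cotyledon values were 153/167 FPKM in darkness, 148/175 at 15 min, 202/198 at 30 min, 226/198 at 1 h, 443/356 at 3 h, 491/456 at 6 h and 439/473 at 12 h. The hypocotyl values of NIA2 were 27.7/30.8 FPKM in darkness, 33/41.8 at 15 min, 54.8/48.5 at 30 min, 65.9/65.2 at 1 h, 267/251 at 3 h, 166/151 at 6 h and 209/165 at 12 h. In cotyledons the libraries from 3 h on lay above all earlier ones, and in hypocotyls the values climbed from the dark to 1 h and were highest at 3 h. Cotyledon NIA2 changed by 1.31 ± 0.13 (SE, adjusted p = 4.16e-08) at 3 h, and its calls at 3 h, 6 h and 12 h ended under quantile normalization, with differences of 0.73, 0.81 and 0.84. In hypocotyls NIA2 was the single gene of the 10 called at 1 h, with 1.14 ± 0.13 (SE, adjusted p = 9.61e-07), and reached 3.11 ± 0.13 (SE, adjusted p = 5.21e-14) at 3 h. The hypocotyl change exceeded the cotyledon change at 3 h by 1.8 ± 0.19 (SE, adjusted p = 1.04e-07), and by 1.125 at 12 h, a call that ended without hypocotyl 12 h replicate A (0.96).

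The balance of the isoforms therefore shifted in cotyledons. The log2 ratio of NIA1 to NIA2 FPKM was 0.66 and 0.58 in dark cotyledons (replicates A and B), -1.43 and -1.85 at 1 h, then -0.73 and -0.74 at 12 h. In hypocotyls the ratio was -1.73 and -2.00 in darkness, -3.17 and -3.14 at 1 h, then -1.75 and -1.64 at 12 h. NIA1 was the more abundant of the pair in cotyledons up to 30 min and NIA2 from 1 h on, whereas NIA2 was the more abundant in every hypocotyl library. Summed over both genes, mean FPKM rose from 406 in dark cotyledons to 729 at 12 h and from 37.3 to 244 in hypocotyls, with a low of 282 in cotyledons at 1 h. These ratios were not tested.

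**Figure D2:**
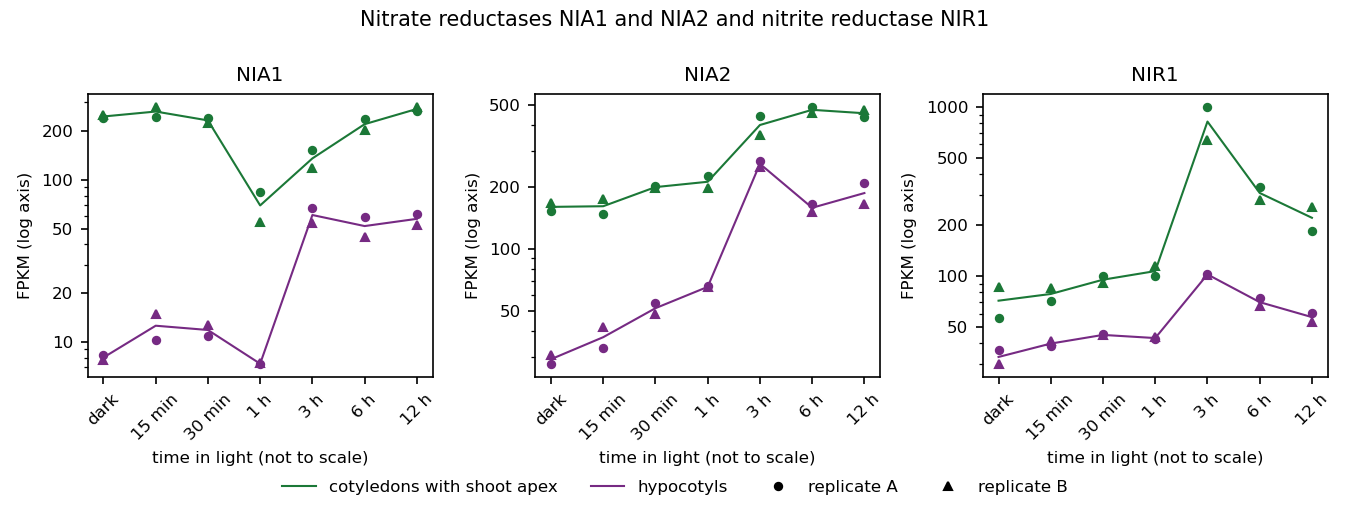
FPKM on a log axis against the stage (darkness and 15 min to 12 h of light, not to scale) for NIA1, NIA2 and NIR1, with cotyledons in green, hypocotyls in purple, circles for replicate A, triangles for replicate B and lines through the means of 2 libraries. Cotyledon NIA1 drops at 1 h to 84.1 and 55 FPKM while hypocotyl NIA1 rises at 3 h, and cotyledon NIR1 peaks at 3 h.

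NIR1, the nitrite reductase that follows nitrate reductase, had a transient peak in cotyledons at 3 h. Its cotyledon values were 56.6/86.4 FPKM in darkness, 71.3/85.3 at 15 min, 99.7/90.5 at 30 min, 99.8/114 at 1 h, 1003/633 at 3 h, 336/283 at 6 h and 186/256 at 12 h. Hypocotyl NIR1 measured 36.3/30.2 FPKM in darkness, 38.7/41 at 15 min, 45.2/44.5 at 30 min, 42.5/43.5 at 1 h, 103/102 at 3 h, 74.1/66 at 6 h and 60.6/53.7 at 12 h. Both cotyledon libraries at 3 h stood above every other library, the mean being 11.4 times the dark mean, and the 6 h and 12 h libraries stayed above both dark ones. The change in cotyledons was 3.49 ± 0.20 (SE, adjusted p = 9.24e-12) at 3 h and 1.63 ± 0.20 (SE, adjusted p = 6.37e-07) at 12 h. In hypocotyls the peak was smaller, with 1.6 ± 0.20 (SE, adjusted p = 8.28e-07) at 3 h, which differed from the cotyledon change by -1.89 ± 0.28 (SE, adjusted p = 9.97e-06). The hypocotyl call at 6 h, a difference of 1.06, ended without dark replicate B (0.93) or without 6 h replicate A (0.98). The 2 dark cotyledon libraries differed from each other, at 56.6 and 86.4 FPKM, and the difference between tissues at 6 h (-1.07) was not called without any one of 4 libraries, among them dark cotyledon replicate A (-0.77), nor under quantile normalization (-0.36).

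Some genes that supply the cofactor and electrons of nitrite reductase were also high in cotyledons at 3 h. Among 11 genes for sirohaem, the molybdenum cofactor, ferredoxin and its reductases, 4 were called higher and 0 lower in cotyledons at 3 h, where 24.0% of all genes were called, and these were named after their values were seen. The median of the list was 0.07 against 0.03 for all genes, and SIRB, the ferrochelatase that completes sirohaem, had a difference of -0.13 ± 0.15 (adjusted p = 0.443). UPM1, the uroporphyrinogen methyltransferase that starts sirohaem synthesis, stood at 56.6 and 89.9 FPKM in dark cotyledons, 32.8 and 39.1 at 1 h, 707 and 479 at 3 h, then 111 and 112 at 6 h, with 6.94% of its 50-base stretches shared with other genes. FD3, a ferredoxin of the non-photosynthetic type, went from 54.2 and 56.4 in darkness to 599.8 and 446 at 3 h, then 63.1 and 60.8 at 6 h. RFNR1 and RFNR2 encode the ferredoxin reductases of the root type, which pass electrons from NADPH to ferredoxin. RFNR1 went from 30.8 and 39.8 to 112 and 77.7 at 3 h, then 14.7 and 13.7 at 6 h, and RFNR2 from 5.84 and 5.89 to 97 and 62.4 and 6.18 and 4.77. In all 4 genes both 3 h libraries thus lay above every other cotyledon library, and the 6 h values of FD3 and RFNR2 were near or among those of darkness.

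The changes at 3 h were 3.01 ± 0.17 for UPM1, 3.20 ± 0.13 for FD3, 1.39 ± 0.15 for RFNR1 and 3.52 ± 0.19 for RFNR2, with adjusted p of 7.39e-12, 4.86e-14, 8.28e-08 and 3.33e-12. In hypocotyls limma and the authors' deposited table called 0 of the 11 genes at any time. At 3 h, however, 7 had an unadjusted and 7 an adjusted p under 0.05 in the limma fit, with differences under the minimum of 1. The list's median in hypocotyls at 3 h was 0.40 against 0.04 for all genes. Of these 4 genes UPM1 had the largest hypocotyl difference at 3 h, 0.79 ± 0.17 (adjusted p = 0.000601). Outside these 4, the hypocotyl mean of CNX2 went from 21.7 to 40.6 FPKM and that of CNX3 from 15.0 to 12.1. The change differed between the tissues at 3 h for UPM1 (-2.22 ± 0.25), FD3 (-3.07 ± 0.19) and RFNR2 (-2.83 ± 0.27), and the difference for RFNR1 of -0.99 ± 0.21 fell just short of the minimum. At 6 h 2 of the 11 were called in cotyledons, both lower. They were RFNR1 (-1.25 ± 0.15) and CNX7 (-1.06 ± 0.10), a subunit of the enzyme that makes molybdopterin, of whose transcript 42.0% is shared with overlapping genes. The median of the list was 0.09 at 6 h against 0.03 for all genes.

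**Figure D3:**
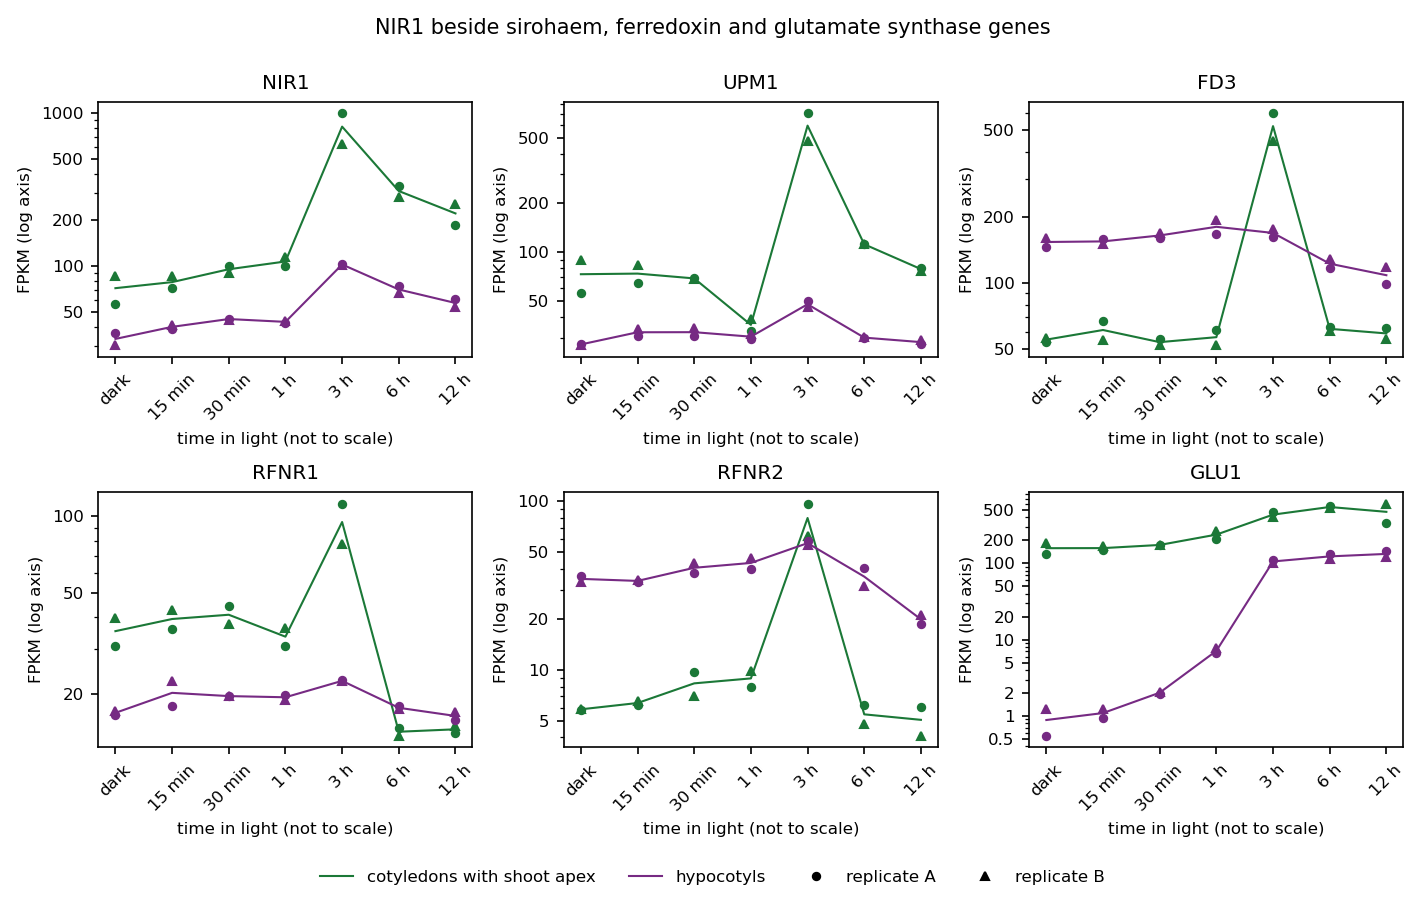
FPKM on log axes against the stage for NIR1, the sirohaem gene UPM1, the ferredoxin FD3, the ferredoxin reductases RFNR1 and RFNR2, and the glutamate synthase GLU1, drawn as points per replicate and lines through means, cotyledons in green and hypocotyls in purple. NIR1, UPM1, FD3, RFNR1 and RFNR2 have a single high point in cotyledons at 3 h, while GLU1 rises in both tissues and stays up.

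GLN2, the plastid glutamine synthetase that also recaptures the ammonium of photorespiration, rose late in both tissues. Its cotyledon values were 589/574 FPKM in darkness, 676/641 at 15 min, 699.9/640.1 at 30 min, 732/808 at 1 h, 1285/1028 at 3 h, 1836/1681 at 6 h and 1848/2629.7 at 12 h. Hypocotyl GLN2 measured 90.2/93.5 FPKM in darkness, 101/103 at 15 min, 113/112 at 30 min, 119/133 at 1 h, 331/276 at 3 h, 341/307 at 6 h and 520.2/545 at 12 h. In both tissues the libraries from 3 h on lay above all those up to 1 h, while in hypocotyls those of 3 h and 6 h overlapped. The change was 1.92 ± 0.14 (SE, adjusted p = 1.97e-10) in cotyledons at 12 h and 2.52 ± 0.14 (SE, adjusted p = 1.13e-12) in hypocotyls. The cotyledon call at 6 h (1.59) ended under quantile normalization (0.93), and at 3 h the cotyledon difference of 0.98 stood just under the minimum. GLN2 had the highest single value of the 10 genes, 2630 FPKM.

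The 3 cytosolic glutamine synthetases took separate courses. GLN1;2 rose in cotyledons, and no change of it was called in hypocotyls. It measured 31.5/37.2 FPKM in darkness, 32.4/36.8 at 15 min, 37.2/41.8 at 30 min, 72.8/86.4 at 1 h, 157/139 at 3 h, 133/129.8 at 6 h and 132/162 at 12 h in cotyledons. The hypocotyl values of GLN1;2 lay between 19.6 and 56.9 FPKM over all 14 libraries, with both extremes in light. At 3 h both hypocotyl libraries stood above both dark ones, with a difference of 0.59 ± 0.25 (SE, adjusted p = 0.0548), and the authors' deposited table gives 0.59 with a q-value of 0.00118 there, under the minimum change. Cotyledon GLN1;2 was above both dark libraries from 1 h on, with 1.19 ± 0.25 (SE, adjusted p = 0.000862) at 1 h and 2.07 ± 0.25 (SE, adjusted p = 9.55e-07) at 3 h. The change differed between the tissues at 3 h by -1.48 ± 0.35 (SE, adjusted p = 0.00166), whereas the call at 1 h (-1.10, adjusted p = 0.0281) ended without any one of 5 libraries.

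GLN1;1 and GLN1;3 were higher in hypocotyls than in cotyledons in darkness, and fell there after 3 h. In hypocotyls GLN1;1 measured 84.4/96 FPKM in darkness, 79.5/81.8 at 15 min, 85.8/96.5 at 30 min, 107/130.3 at 1 h, 135/123 at 3 h, 38.1/40.2 at 6 h and 22.9/25.5 at 12 h. Hypocotyl GLN1;3 measured 136/137 FPKM in darkness, 132/129 at 15 min, 139.8/128 at 30 min, 141/148 at 1 h, 156/150.2 at 3 h, 48.5/47.8 at 6 h and 33.6/34.7 at 12 h. Both were at or above their dark level at 3 h and clearly below it at 6 h and 12 h, without overlap. GLN1;1 changed by -1.86 ± 0.18 (SE, adjusted p = 1.45e-08) at 12 h and GLN1;3 by -1.97 ± 0.10 (SE, adjusted p = 7.00e-13). The 5 Casparian strip and endodermis markers were also called lower in hypocotyls at 12 h (5 of 5, median -2.55). At 6 h 0 of 5 were called, with a median of -0.11 (0 also at an unadjusted p under 0.05, and 0 in the authors' deposited table). GLN1;1 (-1.18) and GLN1;3 (-1.48) were called lower at 6 h. The part of these markers' cells in the results at 6 h and 12 h was not tested.

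In cotyledons GLN1;1 went the other way, from 10.03 and 11.4 FPKM in darkness to 20.6 and 23.1 at 6 h, then 25.8 and 41 at 12 h, a change of 1.52 ± 0.18 (SE, adjusted p = 3.84e-07). The difference between the tissues in the change of GLN1;1 was -3.38 ± 0.25 (SE, adjusted p = 6.51e-10) at 12 h. GLN1;3 in cotyledons went from 72 and 56 in darkness to 36.2 and 32.4 at 12 h, a difference of -0.87 that was not called, and the 12 h levels of the 2 tissues lay close together. The difference between tissues in its change at 12 h (-1.10) ended without dark cotyledon replicate B (-0.92) and under quantile normalization (-0.96).

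The make-up of the cytosolic pool changed accordingly. GLN1;2 made up 27.8% and 35.5% of the summed FPKM of the 3 genes in dark cotyledons and 68.1% and 68.7% at 12 h. GLN1;3 went from 63.4% and 53.6% of that sum to 18.6% and 13.8%. In hypocotyls GLN1;2 made up 12.8% and 12.6% in darkness and 39.2% and 40.4% at 12 h, while its own level stayed about the same and the sum fell from 259.6 to 96.9 FPKM. The log2 ratio of GLN2 to this sum was -1.49 and -1.51 in dark hypocotyls and 2.49 and 2.43 at 12 h, and in cotyledons it went from 2.38 and 2.46 to 3.25 and 3.48. The plastid form was thus below the cytosolic sum in hypocotyls up to 3 h and above it from 6 h, and above it in every cotyledon library. The other 2 cytosolic genes, GLN1;4 and GLN1;5, never passed 1.58 FPKM.

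**Figure D4:**
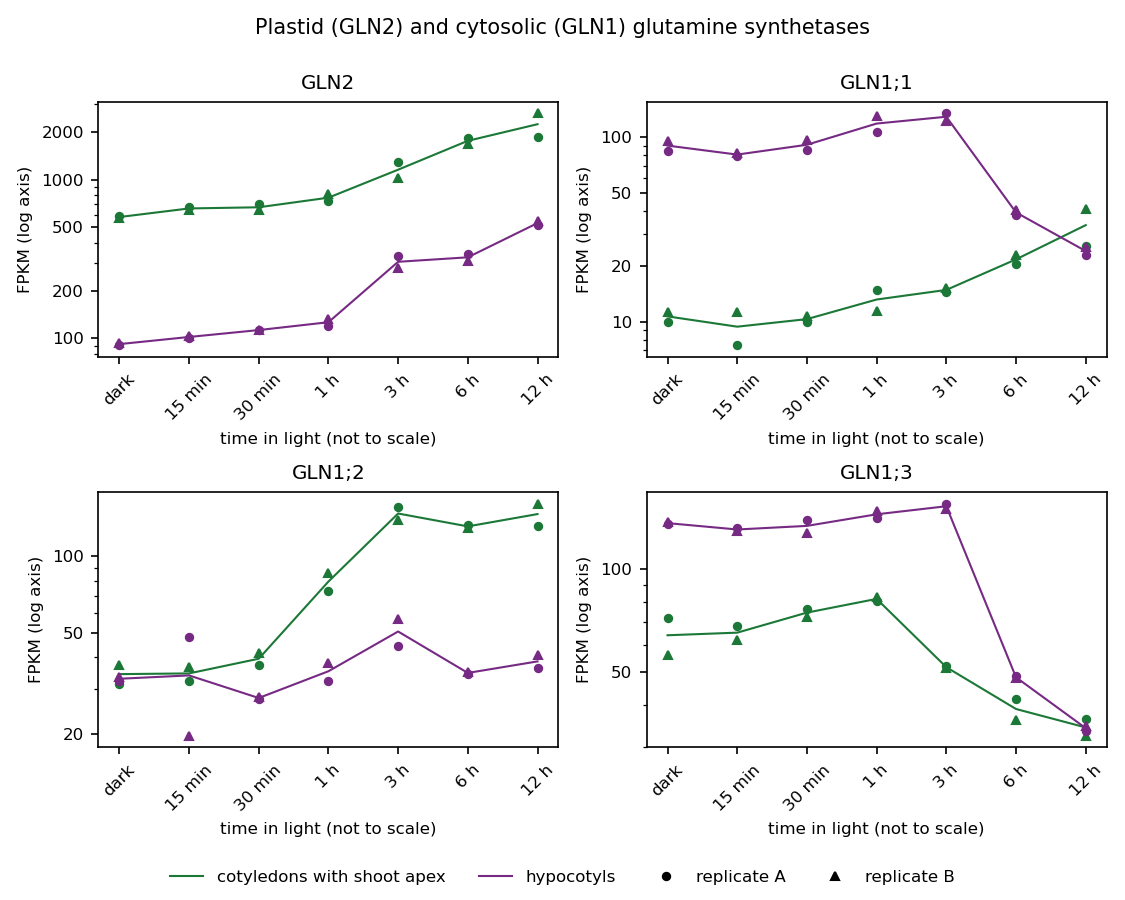
FPKM on log axes against the stage for GLN2 and the 3 cytosolic genes GLN1;1, GLN1;2 and GLN1;3, drawn as points per replicate and lines through the means of 2 libraries. GLN2 rises in both tissues, GLN1;2 separates from 1 h on as the cotyledon values rise, and the hypocotyl values of GLN1;1 and GLN1;3 drop between 3 h and 6 h.

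The glutamate dehydrogenases GDH1 and GDH2, which encode the subunits of the mitochondrial enzyme, fell in both tissues and then recovered to different degrees. Cotyledon GDH2 measured 306/229.5 FPKM in darkness, 244/215 at 15 min, 189/167 at 30 min, 118/72.1 at 1 h, 5.78/7.0 at 3 h, 22.8/17.8 at 6 h and 153/118 at 12 h. In hypocotyls GDH2 measured 309.8/295 FPKM in darkness, 297/225 at 15 min, 208/244 at 30 min, 167/156 at 1 h, 115/109 at 3 h, 220.0/253 at 6 h and 264/344 at 12 h. The cotyledon mean at 3 h was 0.0239 of the dark mean and both libraries were the lowest of all 28, whereas in hypocotyls the 3 h libraries were the lowest at 0.370 of the dark mean and the 12 h libraries overlapped the dark ones. The change in cotyledons was -5.17 ± 0.21 (SE, adjusted p = 7.55e-14) at 3 h, against -1.43 ± 0.21 (SE, adjusted p = 7.08e-06) in hypocotyls, and the difference between them was 3.75 ± 0.29 (SE, adjusted p = 2.50e-09).

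GDH1 went with GDH2 at lower levels. It measured 72.3/57.4 FPKM in darkness, 62.4/57.9 at 15 min, 52.2/45.9 at 30 min, 35.9/24.6 at 1 h, 4.18/5.06 at 3 h, 3.43/3.80 at 6 h and 12.3/13.4 at 12 h in cotyledons. Hypocotyl GDH1 measured 39.7/37.3 FPKM in darkness, 44.2/28.7 at 15 min, 24.2/33.4 at 30 min, 20.3/17.7 at 1 h, 9.36/9.24 at 3 h, 30.5/37.3 at 6 h and 42.7/47 at 12 h. Cotyledon libraries from 30 min on were below both dark libraries and lowest at 3 h and 6 h, while hypocotyl libraries were lowest at 3 h and at or above the dark values at 12 h. The change in cotyledons was -3.55 ± 0.19 (SE, adjusted p = 3.09e-12) at 3 h and -2.24 ± 0.19 (SE, adjusted p = 3.41e-09) at 12 h. The cotyledon call at 1 h (-1.09) ended without dark replicate A (-0.93) or 1 h replicate B (-0.83). GDH1 values are uncertain in one respect, since 9.01% of its 50-base stretches also occur in AT5G18180, which overlaps it on the other strand, or in AT3G03910 (GDH3). AT5G18180 lay between 0.178 and 4.64 FPKM and GDH3 never passed 0.551, below every value of GDH1 in the same library except AT5G18180 in one cotyledon library at 6 h.

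Recovery was tested between 6 h and 12 h of light alone. Between these times 2 of the 10 genes were called in cotyledons, where 3.62% of all genes were, and both were dehydrogenases. GDH2 rose by 2.68 ± 0.21 (adjusted p = 4.09e-08) and GDH1 by 1.59 ± 0.19 (adjusted p = 7.11e-06). In hypocotyls 0 of 10 were called between these times by limma, where 3.29% of all genes were. There 5 had an unadjusted p under 0.05 and 3 an adjusted p under 0.05 with no minimum change. The hypocotyl means had already risen between 3 h and 6 h, for GDH1 from 9.30 to 33.9 FPKM and for GDH2 from 112 to 236. That earlier step was not tested.

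ASN2, one of 3 asparagine synthetase genes, rose more than any other of the 10 genes in hypocotyls from 3 h on. Its cotyledon values were 11.5/15.6 FPKM in darkness, 13.8/14.6 at 15 min, 14.9/14.9 at 30 min, 16.1/18.1 at 1 h, 41.7/31.9 at 3 h, 138/119 at 6 h and 114/127 at 12 h. Hypocotyl ASN2 measured 3.35/3.41 FPKM in darkness, 3.52/3.93 at 15 min, 4.36/4.51 at 30 min, 5.47/5.34 at 1 h, 77.9/55.3 at 3 h, 76.2/65.6 at 6 h and 86.3/94.7 at 12 h. In both tissues the libraries up to 1 h were low and those from 3 h were higher with no overlap, but hypocotyl values were near their later level already at 3 h and cotyledon values at 6 h. The hypocotyl mean at 12 h was 26.8 times the dark mean and the cotyledon mean 8.91 times. The change was 3.93 ± 0.15 (SE, adjusted p = 9.47e-15) in hypocotyls at 3 h and 1.38 ± 0.15 (SE, adjusted p = 1.09e-07) in cotyledons, a difference of 2.55 ± 0.21 (SE, adjusted p = 4.29e-09).

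ASN1, first described as a dark-induced gene, is not among the 10 but moved against ASN2. It stood at 223 and 154 FPKM in dark cotyledons, 47.3 and 19.5 at 1 h, 1.23 and 1.67 at 3 h, then 40.7 and 33.3 at 12 h. In hypocotyls ASN1 went from 171 and 166 in darkness to 1.55 and 1.15 at 3 h, then 14.2 and 9.74 at 12 h. The change at 3 h was -6.26 ± 0.34 in cotyledons (adjusted p = 1.23e-10) and -6.18 ± 0.34 in hypocotyls (adjusted p = 1.27e-10), and the difference between them of 0.08 ± 0.49 was not called. The log2 ratio of ASN2 to ASN1 went from -4.27 and -3.30 in dark cotyledons to 5.09 and 4.26 at 3 h, and from -5.68 and -5.61 in dark hypocotyls to 5.65 and 5.59.

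**Figure D5:**
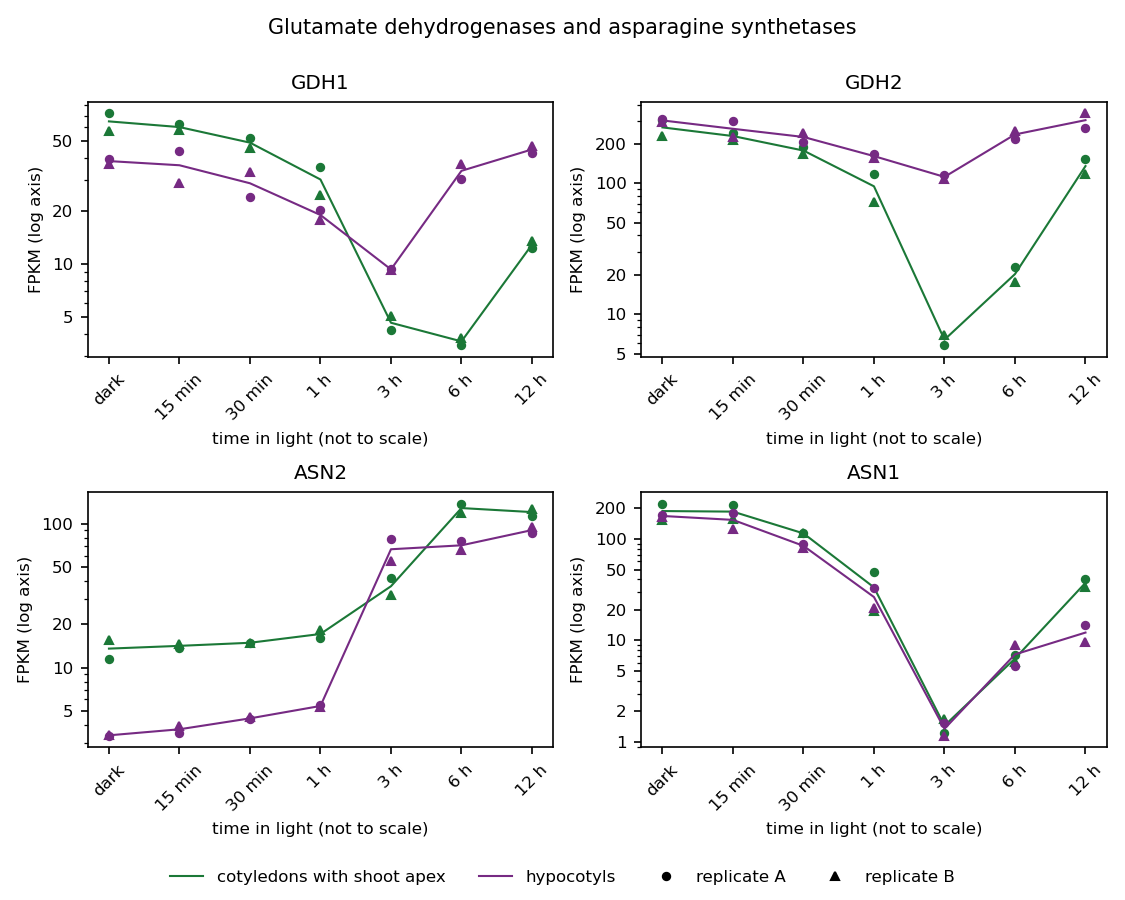
FPKM on log axes against the stage for GDH1, GDH2, ASN2 and, for comparison, ASN1, drawn as points per replicate and lines through the means of 2 libraries. GDH1, GDH2 and ASN1 have their low points at 3 h or 6 h, deepest in cotyledons for the dehydrogenases, and ASN2 rises from 1 h to 3 h most steeply in hypocotyls.

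Starting levels differed between the tissues. In darkness 7 of the 10 genes were called between hypocotyls and cotyledons, where 44.5% of all genes were, 5 lower in hypocotyls and 2 higher. NIA1 had the largest difference, -4.77 ± 0.19 (SE, adjusted p = 6.28e-15), followed in size by GLN1;1 (2.96), GLN2 (-2.65) and NIA2 (-2.42). ASN2 (-1.72) and NIR1 (-1.06) were also lower in hypocotyls and GLN1;3 (1.09) higher. The calls of NIR1 and GLN1;3 ended without dark cotyledon replicate B (-0.76 and 0.91), that of NIR1 also without dark hypocotyl replicate B (-0.93) and that of GLN1;3 under quantile normalization (0.95). GLN1;2, GDH1 and GDH2 were not called.

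After 12 h of light 7 of 10 were again called between the tissues, where 35.2% of all genes were, 5 lower in hypocotyls and 2 higher. NIA1 (-2.23), GLN2 (-2.05), NIR1 (-1.92), GLN1;2 (-1.90) and NIA2 (-1.29) were lower in hypocotyls. GDH1 (1.73) and GDH2 (1.16) were higher there. The call of NIA2 ended under quantile normalization (-0.62) and that of GDH2 without replicate B of either tissue (0.97 and 0.97). GLN1;1, GLN1;3 and ASN2 were not called at 12 h, though each had been in darkness.

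Ordered by mean over the 14 groups, the reductases, GLN2, GLN1;2 and ASN2 were highest in a cotyledon group in light, GDH1 in dark cotyledons, and GDH2, GLN1;1 and GLN1;3 in hypocotyl groups. For NIR1 the 3 highest groups (cotyledons at 3 h, 6 h and 12 h) did not overlap, nor did those of GLN2 (12 h, 6 h and 3 h). For NIA1 the 3 highest groups (cotyledons at 12 h, 15 min and in darkness) overlapped their neighbours, as did the 3 highest of NIA2 and of GLN1;2 and the first 2 of GLN1;1, GDH1, GDH2 and ASN2. The lowest group was dark hypocotyls for NIA2, NIR1, GLN2 and ASN2, and hypocotyls at 1 h for NIA1.

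Other steps of nitrogen use were followed through lists of known genes, each read at 6 h. Of 22 genes for nitrate transport and storage 14 were tested, and 6 were called in cotyledons, where 28% of all genes were (5 higher, 1 lower; median 0.13 against 0.03 for all genes) and 8 in hypocotyls, where 26.1% were (3 higher, 5 lower; median -0.49 against 0.01). In cotyledons NPF3.1, a transporter of the NRT1/PTR family, went from 1.05 and 1.18 to 34.1 and 36.7 FPKM. NRT1.7, which loads nitrate into phloem, went from 2.12 and 2.69 to 28.6 and 30.7 in cotyledons and from 0.340 and 0.954 to 37.6 and 34 in hypocotyls. CLCB, a chloride channel homologue, went from 1.30 and 2.63 to 19.4 and 20.3 and from 2.39 and 1.26 to 27.2 and 26.7. NRT1.11, also a phloem nitrate transporter, fell in hypocotyls from 358 and 342 to 18.5 and 18.5, a change of -4.17 ± 0.18 (adjusted p = 3.20e-14). Part of NPF3.1 (20.4%) and CLCB (19.3%) is shared with overlapping genes on the other strand.

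Of 6 ammonium transporters 3 were tested, and 3 were called higher in cotyledons at 6 h (median 1.67; 28% of all genes called), against 1 higher and 1 lower in hypocotyls (26.1%). AMT1;2 rose from 2.85 and 2.07 to 34 and 35.4 FPKM in cotyledons and from 0.256 and 0.0491 to 3.68 and 3.24 in hypocotyls. AMT2;1 rose from 3.43 and 4.14 to 10.3 and 8.17 in cotyledons. AMT1;1 rose from 5.84 and 4.85 to 17.4 and 21.1 in cotyledons and fell from 42.6 and 47.7 to 7.45 and 7.49 in hypocotyls, but 98.4% of its sequence also belongs to a gene annotated on the other strand, and although the library titles say stranded, whether the counting used strand is not given in those labels, so the assignment of these reads is uncertain.

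Among 16 other genes of ammonium assimilation 13 were tested, and 5 were called in cotyledons at 6 h (2 higher, 3 lower; median -0.13; 28% of all genes called) and 4 in hypocotyls (1 higher, 3 lower; median 0.08; 26.1%). The hypocotyl count is near the share over all genes. GLU1, the ferredoxin-dependent glutamate synthase of leaves, had the largest rise. It went from 0.550 and 1.22 FPKM in dark hypocotyls to 6.59 and 7.66 at 1 h, then 131 and 115 at 6 h, a change of 6.06 ± 0.22 at 6 h (adjusted p = 8.01e-15), and from 131 and 184 to 559.5 and 533 in cotyledons (1.81 ± 0.22). The change of GLU1 differed between the tissues at 6 h by 4.25 ± 0.31 (adjusted p = 6.48e-10). ASN1 was lower in both tissues at 6 h (-4.61 and -4.39). ASPGA1, an asparaginase, fell in cotyledons from 35.3 and 32.9 to 13.7 and 11.4, and ASP4, an aspartate aminotransferase, in hypocotyls from 58.1 and 66.9 to 19.7 and 17, with 11.9% of ASP4 shared with other genes.

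The genes most like each of the 10 over the 14 group means were found among 17626 nuclear coding genes by Pearson's r of mean log2(FPKM + 1), given without a test. The 14 groups come from 2 tissues, so a difference between tissues weighs heavily in r. NIA1 was most like AGO10 (r = 0.979), AT5G58480 (0.977) and CFM2 (0.972), and NIA2 was most like TRXF1 (0.983), HCF244 (0.981) and AT1G74730 (0.981). NIR1 was most like RAD52-2 (0.971), AT3G48480 (0.961) and PYL2 (0.960). GLN2 had the closest companions of the 10, CSR1 (0.997), RP1 (0.996) and CP31B (0.996). For GLN1;1 the first was CYP96A4 (0.994), for GLN1;2 ACR1 (0.984) and for GLN1;3 AT5G22580 (0.962). For GDH1 it was AT5G66650 (0.969), for GDH2 AT5G23575 (0.975) and for ASN2 AT1G78140 (0.984).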

How the data were processed

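Poly(A) RNA-seq libraries were made with the TruSeq v2 kit, per the labels' protocols. Per the submitters' processing notes the authors used CASAVA 1.8.2, TopHat2 2.0.8, Cuffnorm and Cuffdiff 2.1.1, with TAIR10 as the build named. The sample titles call the libraries stranded, but the sources used here do not give whether the counting used strand, so values of genes that overlap on opposite strands are uncertain. The deposited FPKM values, made by the authors with Cuffnorm, were used for all tests, and the authors' deposited table of Cuffdiff log2 folds and q-values was used as an alternative. On the scale log2(FPKM + 1), the 18678 genes whose mean reached 1 FPKM were fitted in limma 3.58.1 (R 4.3.3; trend and robust eBayes) with a mean for each of 14 groups, and 22 contrasts were adjusted by Benjamini-Hochberg within each contrast. The fit was tested on simulated data with 200 genes moved in 1 group, which were simpler than these data. That test gives no error rate for the results here.

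RefSeq's TAIR10.1 annotation matched 32810 of 33557 loci and gave upstream windows and the share of 50-base stretches that occur in another gene. Relative depth came from the most frequent ratio of low FPKM values between libraries, in 5198 genes with a mean under 0.5 FPKM. Of 18995 values at 2 to 5 such steps, 87.0% lay within 0.1 of a whole multiple. No 2 libraries held identical values (0 pairs). Listed genes were named by a rule (up to 3 called per list and tissue by size of change at 6 h; 3 most similar genes per gene), with exceptions marked. The 10 genes and all lists were chosen with earlier results of these data known. Alternatives covered the pseudocount, the filter, scaling, the variance model, the replicate letter, single libraries and the minimum change. Figures used Python 3.11.15 and matplotlib 3.10.9.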

Additional observations from a re-analysis of the deposited data

Results flagged for a closer look

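For 9 of the 10 genes the test of the difference found a change with light that differed between hypocotyls and cotyledons at one time or more, and those 22 differences (hypocotyl change minus cotyledon change, log2 scale, called by limma over all genes) are listed here. Of all genes, 9.90% were called in this test at 1 h, 29.0% at 3 h, 36.9% at 6 h and 33.8% at 12 h. The share of all genes called at any of these times was not computed. NIA1 differed at every time from 1 h on, by 1.73 at 1 h, 3.63 at 3 h, 2.7 at 6 h and 2.54 at 12 h, with a called fall in cotyledons at 1 h and called rises in hypocotyls from 3 h. NIA2 differed by 1.8 at 3 h and 1.125 at 12 h, with a rise in both tissues that was larger in hypocotyls. Its call at 12 h ended without hypocotyl 12 h replicate A (0.96). NIR1 differed by -1.89 at 3 h and -1.07 at 6 h, with the larger rise in cotyledons. The call of NIR1 at 6 h ended under quantile normalization (-0.36) and when some single libraries were left out.

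GLN1;1 differed by -2.14 at 6 h and -3.38 at 12 h, and its 2 changes at 12 h had opposite signs and were both called. GLN1;2 differed by -1.10 at 1 h, -1.48 at 3 h, -1.83 at 6 h and -1.84 at 12 h, with calls in cotyledons alone. Its call at 1 h ended under quantile normalization (-0.99), with no filter on low values and when some single libraries were left out. GLN1;3 differed by -1.10 at 12 h alone, a call that ended without dark cotyledon replicate B (-0.92) and under quantile normalization (-0.96). GDH1 differed by 1.61 at 3 h, 3.64 at 6 h and 2.45 at 12 h, and GDH2 by 3.75 at 3 h and 3.30 at 6 h, with the deeper fall in cotyledons. ASN2 differed by 2.55 at 3 h and 1.31 at 12 h, with the larger rise in hypocotyls. GLN2, the remaining gene, was called at 3 h, 6 h and 12 h under quantile normalization, and at 3 h and 12 h with no minimum change (0.73 and 0.60). Starting levels differed between the tissues for 7 of the 10 genes, where 44.5% of all genes were called, and their part in these differences was not tested.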

How the results depend on the processing

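No change of the 10 genes that was called, in the main fit or in an alternative, reversed its sign between them. Small differences that were not called could do so, such as GLN1;2 in hypocotyls at 15 min (-0.09, and 0.07 in the authors' deposited table). The number of called genes stayed within 1.5 times in all but the following cases. With no minimum change it was 8 in place of 4 in cotyledons at 1 h, 10 in place of 6 at 3 h, 1 in place of 0 in hypocotyls at 30 min, 5 in place of 1 at 1 h, and 3 in place of 0 between 6 h and 12 h. In hypocotyls at 1 h it was 2 in place of 1 with a pseudocount of 0.1 FPKM or quantile normalization, GDH1 or GDH2 being added. The difference between tissues at 1 h was called for 1 gene in place of 2 with no filter on low values or with quantile normalization. Quantile normalization added calls of the difference between tissues for GLN2 at 3 h, 6 h and 12 h (1.51, 1.23 and 1.62), NIA2 at 6 h (1.799), ASN2 at 6 h (1.02) and GDH2 at 12 h (1.31), and of the cotyledon fall at 12 h for GLN1;3 (-1.02) and GDH2 (-1.28). Leaving out each library in turn gave 1 to 2 genes in hypocotyls at 1 h (2 without dark replicate B or 1 h replicate A), 1 to 2 for the difference at 1 h, 3 to 4 in cotyledons at 1 h, 7 to 9 in cotyledons and for the difference at 12 h, and 5 to 7 between the tissues in darkness. Where this left a group with 1 library, that library was assumed to vary like the other groups. Over all genes the number called rose 1.71 to 8.27 times with no minimum change, for example from 4485 to 11591 in cotyledons at 3 h, and at most 1.5 times otherwise, the highest being 1013 against 677 for cotyledons between 6 h and 12 h with a pseudocount of 0.1 FPKM.

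Libraries with the same replicate letter showed little shared deviation. The A minus B deviations of 91 pairs of groups correlated between -0.11 and 0.16, 3 of them over 0.1, and those of the 2 tissues at one time between -0.07 and 0.06. Whether the 2 tissues with the same letter at the same time came from the same seedlings cannot be told from these correlations. With the letter as a replicate block the counts of called genes were the same, for example 7 in cotyledons at 6 h, and a block of both tissues at one time also left them unchanged (7 for the difference at 3 h). With 2 libraries in each group and unknown read counts, differences under about 1 on the log2 scale remain uncertain.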

Other observations

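Some regulators known to act on nitrogen genes were called earlier than any of the 10 genes, an order that rests on the minimum difference of 1. In hypocotyls NIA2 already differed by 0.80 ± 0.13 (SE) at 30 min (limma adjusted p = 0.000197). The authors' deposited table gives 0.69 for hypocotyl NIA1 at 15 min, with a q-value of 0.0031. Of 24 tested (27 in the table, 29 listed), 7 were called in cotyledons at 30 min (3 higher, 4 lower; 3.37% of all genes called), when none of the 10 genes was, 14 at 1 h (5 higher, 9 lower; 11.3%) and 9 at 3 h (24.0%). In hypocotyls 4 were called at 30 min (3.60%) and 6 at 1 h (8.26%). The genes named next were chosen after their values were seen. BT2, a BTB and TAZ domain protein, stood at 442 and 403 FPKM in dark cotyledons, 52.7 and 22.8 at 1 h, and again 644 and 475 at 12 h. Its change at 1 h was -3.56 ± 0.26 (adjusted p = 2.58e-09). LBD37, LBD38 and LBD39, known as repressors of nitrate-responsive genes, were also called lower in cotyledons at 1 h, by -1.42 ± 0.15, -1.49 ± 0.14 and -1.56 ± 0.18. These low points and that of NIA1 fell at 1 h, but the courses before it differed. The means of LBD37, LBD38 and LBD39 were 53.7, 36.1 and 30.1 FPKM in dark cotyledons and 33.3, 23.9 and 17.5 at 15 min. Those of NIA1 were 246 and 264. A link between these genes and NIA1 was not tested.

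At 6 h, 6 of the 24 were called in cotyledons (4 higher, 2 lower; 28% of all genes called) and 4 in hypocotyls (4 higher; 26.1%), counts no higher than the share over all genes. HYH, a bZIP factor of light signalling, went from 1.37 and 0.526 FPKM in dark hypocotyls to 109.5 and 102 at 1 h, then 173 and 195 at 6 h, a change of 6.60 ± 0.26 at 6 h. HY5, its close relative, was 2.25 ± 0.11 higher in hypocotyls at 6 h. The clock gene CCA1 was 1.85 ± 0.20 higher in both tissues at 6 h and stood at 141 and 189.9 FPKM in cotyledons at 1 h. BZIP1, known as a starvation-related bZIP factor, was lower in cotyledons at 6 h (-1.96 ± 0.21), from 104 and 77.1 to 20.9 and 24.0 FPKM.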
